A study of Homo sapiens with 24 samples.

Results

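Transcript levels of 10 genes of the Notch pathway were examined in a Burkitt lymphoma line that was made to express miR-28: the receptor genes NOTCH1 and NOTCH2, RBPJ, the mastermind genes MAML1, MAML2 and MAML3, the corepressor gene SPEN, and the target genes HES1, DTX1 and NRARP. The genes are members of the pathway by knowledge of their function, but the list was drawn up with the miR-28 to control comparison in view, in which MAML3 stood out, so it counts as selected on the measured values of that comparison. Every probe set whose only gene symbol in the platform annotation was one of them was used. This gave 24 probe sets for 10 of the 19775 genes with a probe set on the array. Differences between miR-28 and control cells are therefore described for these 10 genes with no test of their own, and tests of these genes were kept to changes with time and to differences between cell populations.

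P3HR1 is an established Burkitt lymphoma cell line that carries Epstein-Barr virus. All cells carried a doxycycline-inducible pRTS1 vector. In control cells the vector held green fluorescent protein (GFP) and nothing else, and in the cells called miR-28 cells it held GFP plus the miR-28 precursor. Each genotype had 2 bulk populations of transfected cells, called A and B, and each population was induced 3 times for 12 h and 3 times for 24 h. Genotype and time thus made 4 groups of 6 arrays. Doxycycline was given to all 24 samples, at 0.1 µg/ml by the treatment entry and 1 µg/ml by the source entry of the labels. No sample without doxycycline was analysed here, so differences that the populations had before induction cannot be told apart from those that followed it. The inductions of one population share its cells, so p-values measure the spread between these samples, with only 2 populations behind each genotype.

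Notch receptors are cleaved when a ligand on a neighbouring cell binds them, and the freed intracellular part enters the nucleus. There it joins RBPJ, the DNA-binding factor of the pathway, and a mastermind protein is recruited as coactivator, which turns RBPJ from a repressor that holds corepressors such as SPEN into an activator of genes such as HES1. In B cells NOTCH2 drives marginal zone development, and RBPJ is also the cell factor that several nuclear proteins of Epstein-Barr virus bind.

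hsa-miR-28-3p is shown because it is a mature strand of the precursor by which the genotypes were made to differ, with its seed (bases 2 to 8) in capitals, from the RefSeq annotation of GRCh38.p14 at chr3:188688834-188688855 on the plus strand. The promoter windows run from 250 bases before to 50 bases after the annotated transcript start, in the RefSeq tables of the same build. That of HES1, at chr3:194135898-194136197 on the plus strand, is shown because HES1 is the textbook RBPJ target, with each match to TGGGAA, the core of the RBPJ site, in capitals. That of MAML3, at chr4:140154135-140154434 on the minus strand, is shown because the genotypes did not overlap on its brightest probe set at either time. Sequences read 5′ to 3′ on the strand of the gene.
hsa-miR-28-3p: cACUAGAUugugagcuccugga
HES1 promoter: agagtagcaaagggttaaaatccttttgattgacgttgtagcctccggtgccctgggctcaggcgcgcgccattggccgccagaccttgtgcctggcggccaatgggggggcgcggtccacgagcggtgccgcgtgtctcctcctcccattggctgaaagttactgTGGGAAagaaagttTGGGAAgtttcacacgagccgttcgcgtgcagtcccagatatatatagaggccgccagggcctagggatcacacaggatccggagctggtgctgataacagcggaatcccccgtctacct
MAML3 promoter: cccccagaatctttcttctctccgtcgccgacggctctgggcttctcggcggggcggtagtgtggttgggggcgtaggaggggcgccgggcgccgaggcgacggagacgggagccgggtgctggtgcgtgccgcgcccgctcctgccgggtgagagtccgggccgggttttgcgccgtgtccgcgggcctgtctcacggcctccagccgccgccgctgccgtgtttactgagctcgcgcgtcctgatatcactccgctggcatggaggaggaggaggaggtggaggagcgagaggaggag
The letters TGGGAA or their reverse complement TTCCCA occurred at positions 167 and 181 of the HES1 window, counted from its first base, and nowhere in that of MAML3. RefSeq windows were found for 9 of the 10 genes, 13 windows in all because RBPJ has 5, and those of HES1, RBPJ and SPEN held a match (3 of 13 windows). Of all 35116 windows of this length in the tables, 24.0% held at least 1 match and 3.8% held 2 or more, as the windows of HES1 and 1 of RBPJ did. A match of 6 letters describes the sequence and does not by itself show that RBPJ binds there.

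The values are linear MAS5 intensities, which the authors' scaling had brought to a common trimmed mean. Median intensity per array ranged from 73.37 to 93.41. Of the B-cell markers, 7 of 8 were measured, with a median intensity of 9219, from 1815 for BLK to 1.857e+04 for MS4A1. The markers of T cells, NK cells, myeloid cells and fibroblasts or epithelium had medians of 48.79, 44.21, 43.86 and 43.2, and the highest of them was DCN at 515.4. The ACTB control probe sets gave a 3′ to 5′ log2 ratio above 1 on 2 arrays, control B2 at 24 h (1.59) and miR-28 B2 at 12 h (1.05), against 0.27 to 0.87 on the others. Leaving these 2 arrays out changed no count of called probe sets among the 10 genes. Bulk RNA cannot separate fewer cells of a type from less RNA per cell.

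Of the 24 probe sets, 16 lay above the filter, a mean log2(intensity + 8) of 6.108 over all arrays, and these stood for 8 genes. The other 8 were the 3 of HES1, the 2 of MAML2, 2 of the 3 of MAML3 and 1 of the 2 of NOTCH1. The probe set just inside was NOTCH2 202445_s_at at 6.17, and those just outside were HES1 203395_s_at at 5.617 and MAML3 207946_at at 5.607. A dim probe set can reflect low RNA or a poor probe, and intensities are compared below only within a probe set.

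Between genotypes, the probe set above the filter that stood apart was MAML3 242794_at, with about a doubling in miR-28 cells at both times. Below the filter, HES1 203395_s_at differed by -1.29 ± 0.31 (SE) at 24 h, with overlap between the groups. The receptors, RBPJ, MAML1, SPEN and DTX1 overlapped between genotypes at both times, as did NRARP. At an adjusted p under 0.05 over all 27306 probe sets tested (limma, Benjamini-Hochberg), 0 of the 16 member probe sets were called at 12 h and 1 at 24 h, MAML3, against 0.165% and 2.75% of all probe sets (at 24 h 1.27% higher and 1.48% lower). Nothing is read from these counts, since the same contrast led to the choice of genes. The median difference over the 16 was 0.07 at each time on the log2(intensity + 8) scale, beside 0.00 at 12 h and 0.01 at 24 h over all probe sets, and the median size of a difference was 0.16 and 0.15 beside 0.13 and 0.17.

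**Figure D1:**
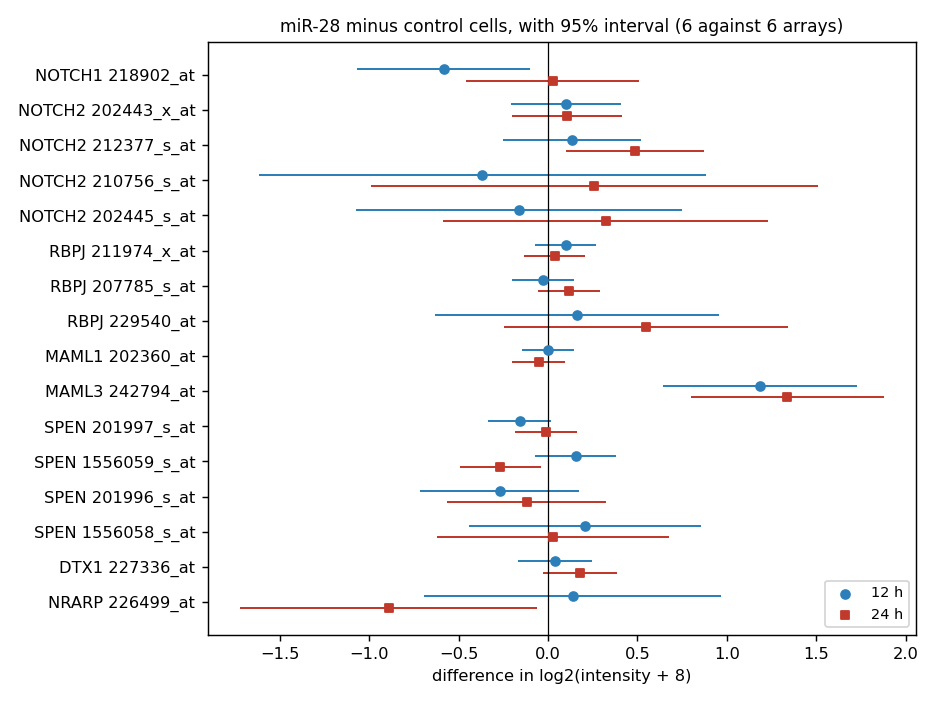
Difference between miR-28 and control cells for the 16 probe sets above the filter, at 12 h (circles) and 24 h (squares), in log2(intensity + 8) on the x axis, with lines for the 95% interval (6 arrays against 6). MAML3 242794_at sits at 1.18 and 1.34, while the other points lie between -0.89 and 0.55, several with wide intervals.

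NOTCH1 encodes a receptor that is often mutated in chronic lymphocytic leukaemia. Its probe set 218902_at had a lowest, median and highest intensity of 133, 217.5 and 359.7 in control cells and 88.02, 126.9 and 244.3 in miR-28 cells at 12 h. At 24 h the values were 173.3, 189 and 267.1 in control and 136.3, 217 and 314.4 in miR-28 cells. The miR-28 arrays lay lower at 12 h with overlap, and at 24 h they spread on both sides of the control range. The difference was -0.58 ± 0.23 (SE) at 12 h and 0.03 ± 0.23 at 24 h. At 12 h control population A had the highest mean (286.1 ± 65.0, SD, n = 3). Control B had 164.1 ± 32.8 and the miR-28 populations A and B 145.9 ± 42.7 and 150.9 ± 82.5. The arrays of control A and control B did not overlap at that time, as for 9.7% of all probe sets. Control A, with a lowest array of 236.6, overlapped with miR-28 population B, with a highest of 244.3. From 12 h to 24 h, NOTCH1 differed by 0.53 ± 0.24 in miR-28 cells (95% interval 0.03 to 1.04; limma adjusted p = 0.287) and by -0.08 ± 0.24 in control cells (adjusted p = 0.919). The difference between these was 0.61 ± 0.34 (adjusted p = 0.897). The other NOTCH1 probe set, 223508_at, was below the filter, with group means from 8.23 to 12.9.

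NOTCH2, the receptor of marginal zone B cells, had 4 probe sets above the filter. On 202443_x_at the medians at 12 h were 481.1 in control and 506.3 in miR-28 cells, within a range of 392.1 to 658.3 over both groups. At 24 h they were 382 and 414, within 312.9 to 597.8. On 212377_s_at the lowest, median and highest values at 24 h were 217.3, 281.3 and 338.2 in control and 297.8, 362.5 and 530.1 in miR-28 cells, and the groups overlapped. The difference between genotypes was 0.10 ± 0.15 at both times on the former, and 0.13 ± 0.19 at 12 h and 0.49 ± 0.19 at 24 h on the latter. At 24 h their 95% intervals, -0.20 to 0.41 and 0.10 to 0.87, overlapped, and the difference between the probe sets was not tested. The 2 dim ones, 210756_s_at and 202445_s_at, ranged from 13.84 to 251.6 and from 10.48 to 162 and gave differences with SEs of 0.60 and 0.44, too wide to place. From 12 h to 24 h, 202443_x_at differed by -0.27 ± 0.15 in both genotypes (adjusted p = 0.397 in control and 0.429 in miR-28 cells), and no NOTCH2 probe set passed the test in either. A further probe set, 227067_x_at, is annotated to NOTCH2 and to NOTCH2NL genes and was left out. Its mean at 12 h was 145.4 in control and 160.5 in miR-28 cells, and at 24 h it was 116.1 and 168.1. The NOTCH2NL genes are near-identical copies of part of NOTCH2, and whether they also bind to the 4 probe sets named NOTCH2 was not tested.

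**Figure D2:**
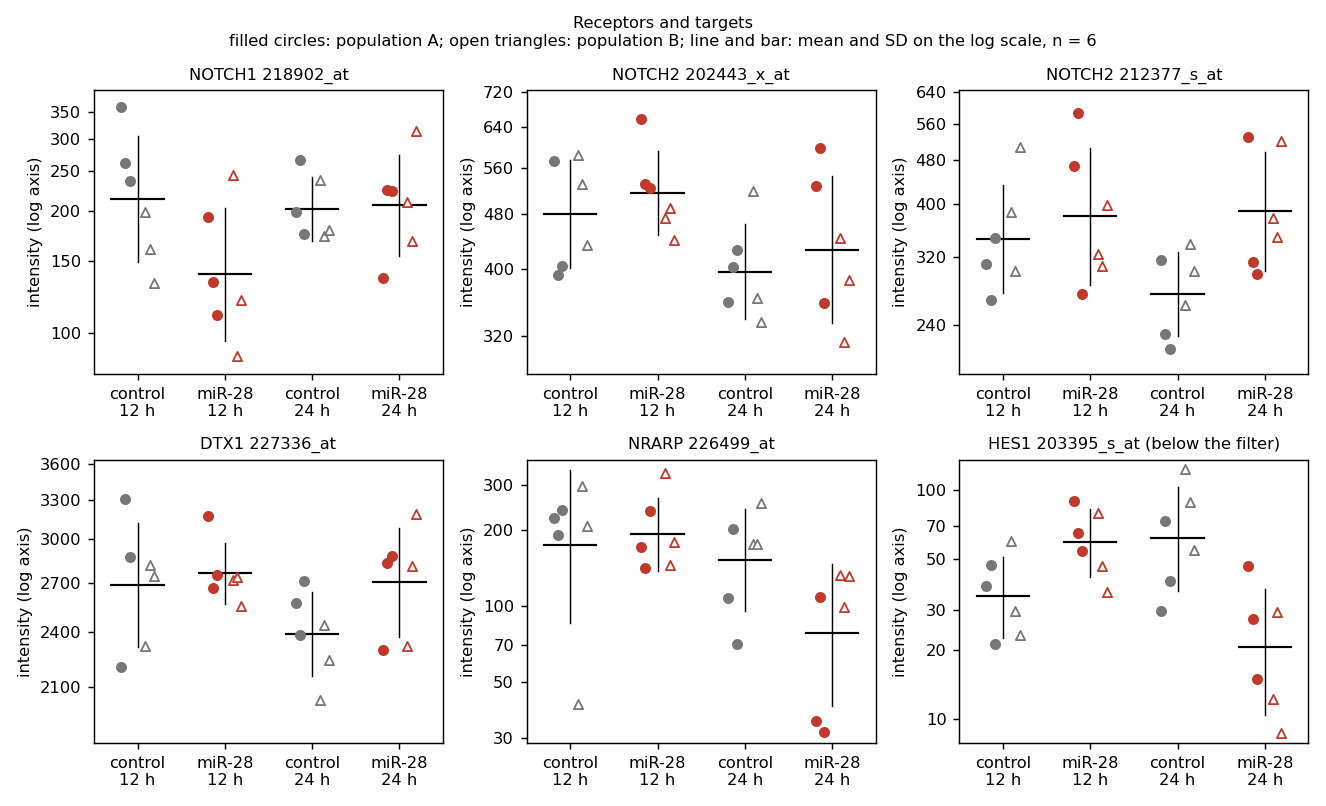
Intensity on each array (log axis) of NOTCH1, of the 2 brighter NOTCH2 probe sets and of the targets DTX1, NRARP and HES1, by genotype and time; filled circles are population A, open triangles population B, and lines and bars the mean and SD on the log scale (n = 6). The NRARP values of miR-28 cells at 24 h lie between 31.87 and 132.6, below those of miR-28 cells at 12 h (141.8 to 335.3), while the receptor panels overlap throughout.

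RBPJ encodes the DNA-binding factor itself. Its brightest probe set, 211974_x_at, had lowest, median and highest intensities of 4752, 5447 and 5818 in control cells against 4658, 5961 and 6452 in miR-28 cells at 12 h. At 24 h they were 4554, 5046 and 5751 against 4670, 5224 and 5619. At 12 h 4 of the 6 miR-28 arrays lay above the highest control array and 1 below the lowest, and at 24 h all 6 lay within the control range. The difference between genotypes was 0.10 ± 0.08 at 12 h (95% interval -0.07 to 0.27) and 0.04 ± 0.08 at 24 h (-0.13 to 0.21). On 207785_s_at it was -0.03 ± 0.08 and 0.12 ± 0.08, so on both bright probe sets the intervals left room for differences of at most 0.29. With time in miR-28 cells, 207785_s_at moved from a median of 1700 to 1963, by 0.22 ± 0.09 (adjusted p = 0.218 by limma), whereas 211974_x_at differed by -0.14 ± 0.09 (adjusted p = 0.463). These 2 probe sets had a Pearson r of -0.022 over the 24 arrays, and the dim RBPJ probe set, 229540_at, had -0.013 and 0.088 with them. So the probe sets of RBPJ did not vary together from array to array.

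SPEN is a large nuclear protein that brings histone deacetylases to RBPJ. Its probe set 201997_s_at had a lowest, median and highest intensity of 2217, 2385 and 2627 in control cells at 12 h and of 1898, 1997 and 2202 at 24 h. In miR-28 cells the values were 1800, 2056 and 2707 at 12 h and 1875, 1993 and 2130 at 24 h. In control cells all 6 arrays at 12 h lay above all 6 at 24 h, and 2.81% of all probe sets tested had groups as separate in that comparison. The change with time was -0.25 ± 0.09 in control cells (95% interval -0.43 to -0.07; limma adjusted p = 0.125) and -0.10 ± 0.09 in miR-28 cells (adjusted p = 0.630). Neither passed the test. On 1556059_s_at the order was another: medians were 786.1 and 827.8 in control cells at 12 h and 24 h, and 900 and 658.2 in miR-28 cells. Its change with time was 0.06 ± 0.11 in control cells and -0.36 ± 0.11 in miR-28 cells (adjusted p = 0.104, the smallest of the 16 in that comparison). The difference between those changes was -0.42 ± 0.16 (95% interval -0.75 to -0.09; adjusted p = 0.751). On the remaining pair, 201996_s_at and 1556058_s_at, changes with time lay between -0.14 and 0.22 with SEs of 0.22 and 0.33. Pearson r between SPEN probe sets over the 24 arrays ran from -0.110 to 0.460, the latter between the 2 brightest.

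**Figure D3:**
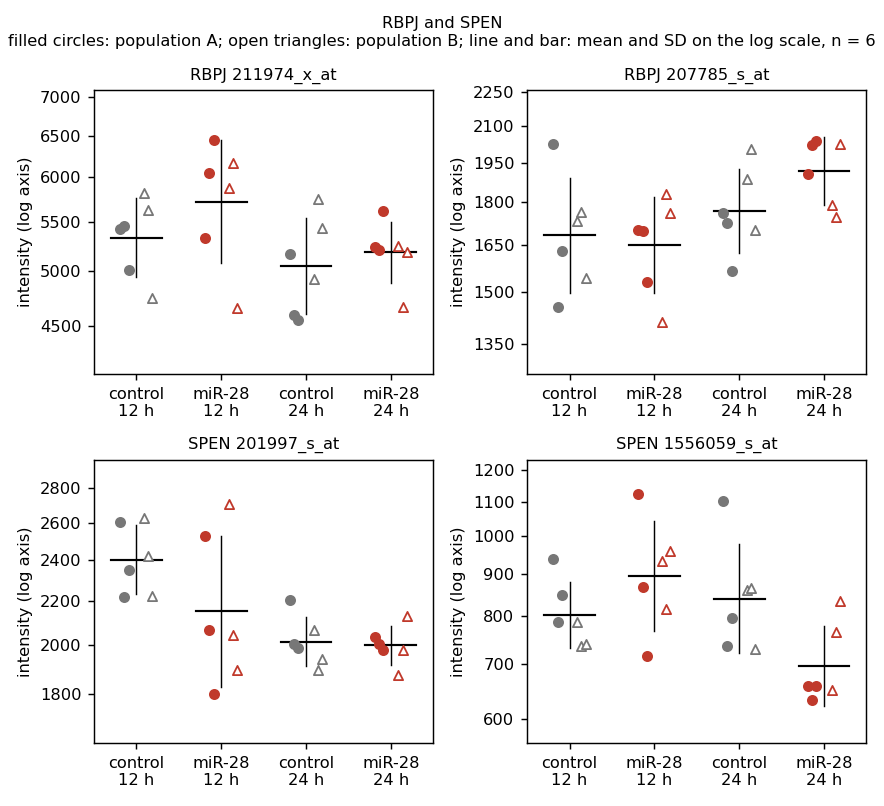
Intensity on each array (log axis) of the 2 brightest probe sets of RBPJ and of SPEN, by genotype and time; filled circles are population A, open triangles population B, and lines and bars the mean and SD on the log scale (n = 6). SPEN 201997_s_at in control cells lies at 2217 to 2627 at 12 h and at 1898 to 2202 at 24 h, and the RBPJ panels overlap between all groups.

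MAML3 is 1 of 3 mastermind-like coactivators that bridge the Notch and RBPJ complex to histone acetyltransferases. On 242794_at, the lowest, median and highest intensities at 12 h were 157, 241.9 and 372.5 in control cells and 384.4, 581.7 and 889 in miR-28 cells. At 24 h they were 164.3, 248.6 and 317.2 in control cells and 406.1, 630.1 and 867.4 in miR-28 cells. At both times every miR-28 array lay above every control array, and 0.67% of all probe sets at 12 h and 2.46% at 24 h had groups as separate, in either direction. The difference was 1.18 ± 0.26 at 12 h (95% interval 0.64 to 1.73) and 1.34 ± 0.26 at 24 h (0.80 to 1.88), which is 2.27-fold (1.56 to 3.31) and 2.53-fold (1.74 to 3.68). The other 2 MAML3 probe sets, 207946_at and 228508_at, did not show it. Below the filter, with group means of 24.1 to 69.5, they gave -0.25 ± 0.55 and -0.46 ± 0.58 at 12 h and -0.20 ± 0.55 and -0.26 ± 0.58 at 24 h, and their intervals are too wide to set against the bright one. In the platform annotation used here, a sequence record was listed for 207946_at and 228508_at but not for 242794_at. The position of the 3 probe sets along the MAML3 transcripts was not analysed here.

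The size of the MAML3 difference was not the same in both pairs of populations. In miR-28 cells at 12 h, population A had an intensity of 806.4 ± 73.0 (SD, n = 3) and population B 398.4 ± 14.01, and the 2 sets did not overlap, as for 12.0% of all probe sets. At 24 h population A had 747.6 ± 201.8 and population B 528.2 ± 188.9, with overlap. Control cells had 239.4 ± 116.4 in A and 271.5 ± 52.9 in B at 12 h, and 199.1 ± 38.5 and 283.2 ± 31.0 at 24 h. Within population A the miR-28 cells were higher by 1.81 ± 0.31 at 12 h and 1.84 ± 0.31 at 24 h, and within population B by 0.56 ± 0.23 and 0.83 ± 0.23. The letters A and B name separate populations in each genotype, so these pairings of control with miR-28 populations rest on the letter alone. Over both times, population B minus population A was -0.75 ± 0.20 in miR-28 cells (95% interval -1.17 to -0.34; limma adjusted p = 0.844) and 0.38 ± 0.20 in control cells (-0.04 to 0.80; adjusted p = 0.706). Neither passed the test over all probe sets, and the difference between these 2 values was not tested.

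**Figure D4:**
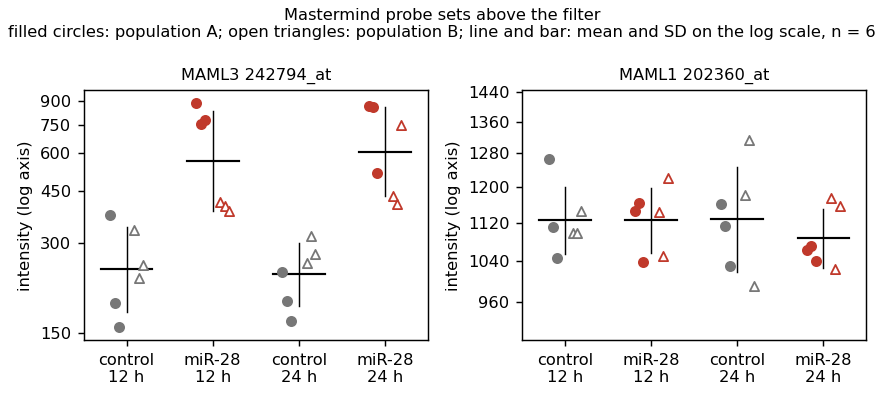
Intensity on each array (log axis) of MAML3 242794_at and MAML1 202360_at, by genotype and time; filled circles are population A, open triangles population B, and lines and bars the mean and SD on the log scale (n = 6). MAML3 in miR-28 cells lies at 384.4 to 889, above the control cells at 157 to 372.5, with population A above population B at 12 h, while the 4 MAML1 groups overlap.

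MAML3 did not pass the test for a change between 12 h and 24 h. The change was -0.05 ± 0.27 in control cells (95% interval -0.61 to 0.51; adjusted p = 0.953 by limma) and 0.10 ± 0.27 in miR-28 cells (-0.46 to 0.66; adjusted p = 0.909). The difference between the genotypes in this change was 0.15 ± 0.38 (-0.64 to 0.95; adjusted p = 0.981), and these intervals are wide beside the values. On 242794_at every miR-28 array already lay above every control array at 12 h.

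MAML1 encodes the best-studied mastermind coactivator, and its probe set had the smallest SE of the 16. On 202360_at its lowest, median and highest values were 1045, 1103 and 1266 in control cells against 1038, 1144 and 1220 in miR-28 cells at 12 h. At 24 h they were 991.2, 1137 and 1314 against 1023, 1066 and 1175. All 4 groups overlapped. The difference between genotypes was 0.00 ± 0.07 at 12 h (95% interval -0.15 to 0.15) and -0.05 ± 0.07 at 24 h (-0.20 to 0.09), and the changes with time were 0.00 ± 0.07 and -0.05 ± 0.07. The 2 probe sets of MAML2, the mastermind gene found in the CRTC1-MAML2 fusion of mucoepidermoid carcinoma, were below the filter, with group means of 12.6 to 39.2 and single arrays from 2.89 to 111.8.

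DTX1 encodes a ubiquitin ligase that is itself induced by Notch in B cells. On 227336_at its lowest, median and highest values were 2205, 2785 and 3305 in control cells against 2558, 2731 and 3176 in miR-28 cells at 12 h. The values at 24 h were 2039, 2412 and 2714 against 2296, 2826 and 3192. The groups overlapped at both times. The difference between genotypes was 0.04 ± 0.10 and 0.18 ± 0.10 (95% interval at 24 h -0.03 to 0.39). The change with time was -0.17 ± 0.10 in control cells (limma adjusted p = 0.441) and -0.03 ± 0.10 in miR-28 cells (adjusted p = 0.929).

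NRARP encodes a small ankyrin-repeat protein that Notch induces and that limits Notch activity. On 226499_at its lowest, median and highest values were 40.94, 214.5 and 296.7 in control cells against 141.8, 174.7 and 335.3 in miR-28 cells at 12 h. The values at 24 h were 70.65, 176 and 255 against 31.87, 103.8 and 132.6. The miR-28 cells at 24 h lay wholly below those at 12 h, a separation that 2.57% of all probe sets showed in that comparison, and overlapped with control cells at 24 h. The change with time in miR-28 cells was -1.21 ± 0.42 (95% interval -2.07 to -0.35; limma adjusted p = 0.138), beside -0.18 ± 0.42 in control cells (adjusted p = 0.882). The difference between these was -1.03 ± 0.59 (-2.25 to 0.19; adjusted p = 0.901). None of these passed the test. Between genotypes the difference was 0.14 ± 0.40 at 12 h and -0.89 ± 0.40 at 24 h.

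HES1 encodes a repressor of the bHLH family and is the most used readout of Notch activity. All 3 of its probe sets were below the filter, so it entered the tests only in the fit with no filter. The brightest, 203395_s_at, had lowest, median and highest values of 21.37, 33.86 and 59.84 in control cells against 35.84, 59.79 and 90.18 in miR-28 cells at 12 h. The values at 24 h were 29.62, 64.29 and 123.8 in control and 8.696, 21.15 and 46.7 in miR-28 cells. Medians were thus higher in miR-28 cells at 12 h and lower at 24 h, with overlap at both times. The difference between genotypes was 0.66 ± 0.31 at 12 h and -1.29 ± 0.31 at 24 h (95% interval -1.93 to -0.64). With no filter the change with time was 0.72 ± 0.33 in control cells (limma adjusted p = 0.462) and -1.23 ± 0.33 in miR-28 cells (adjusted p = 0.147). The difference between these was -1.95 ± 0.46 (95% interval -2.90 to -0.996; adjusted p = 0.685 over 54613 probe sets). The other HES1 probe sets, 203393_at and 203394_s_at, had group means of 10.2 to 42.6, and their difference between genotypes in the change with time was -0.31 ± 0.31 and 0.52 ± 0.83. Between genotypes at 24 h they differed by -0.06 ± 0.21 and -0.03 ± 0.56. At these intensities MAS5 values are close to background, and no detection calls were analysed here.

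Over all 16 member probe sets, the changes with time had a median of -0.15 in control cells (4 above 0 and 12 below) and 0.02 in miR-28 cells (9 above 0 and 7 below), beside -0.03 and -0.02 over all probe sets. In both genotypes 0 of 16 passed an adjusted p of 0.05 by limma, where 3.09% of all probe sets passed in control cells and 1.88% in miR-28 cells. At an unadjusted p under 0.05 there were 1 and 4 of 16, beside 16.7% and 15.4% of all. The 4 in miR-28 cells were NOTCH1 218902_at, RBPJ 207785_s_at, NRARP 226499_at and SPEN 1556059_s_at, of which the first pair had higher and the last pair lower values at 24 h. For the difference between genotypes in the change with time, 0 of 16 were called, beside 0.0% of all, and 1 of 16 had an unadjusted p under 0.05, SPEN 1556059_s_at, beside 5.82% of all. Between populations A and B, 0 of 16 were called in control cells (0.00366% of all) and 0 of 16 in miR-28 cells (0.0% of all), with 0 and 2 at an unadjusted p under 0.05, beside 7.42% and 4.80% of all. The 2 were MAML3 242794_at and NOTCH2 202443_x_at, both lower in population B.

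**Figure D5:**
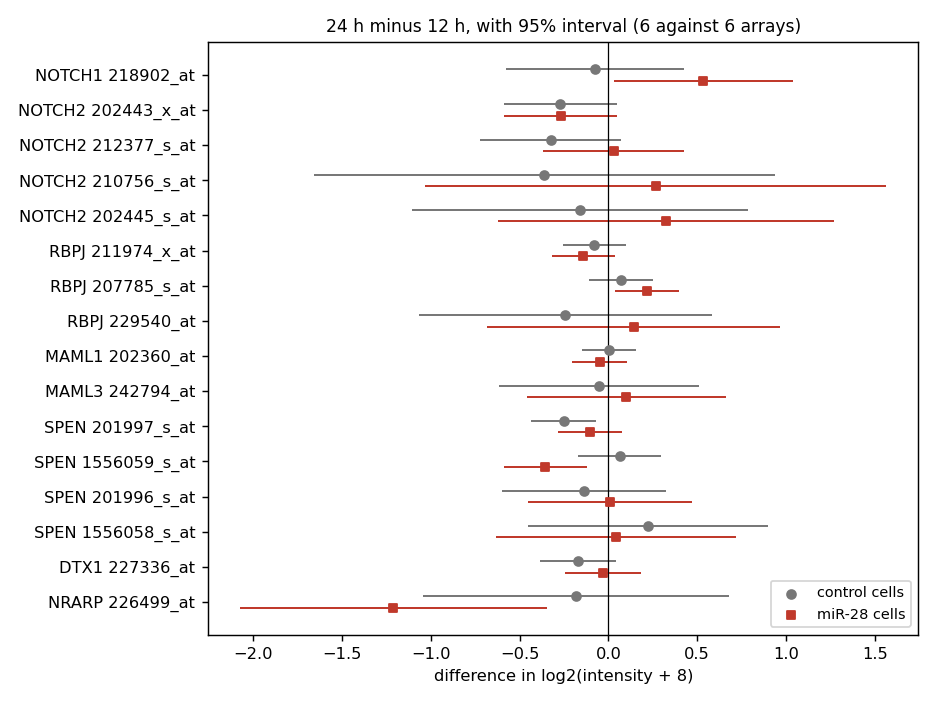
Change from 12 h to 24 h for the 16 probe sets above the filter, in control cells (circles) and miR-28 cells (squares), in log2(intensity + 8) on the x axis, with lines for the 95% interval (6 arrays against 6). The lowest point is NRARP in miR-28 cells at -1.21 and the highest NOTCH1 in miR-28 cells at 0.53, and no point passed the adjusted test.

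The rest of the pathway was examined through 65 further genes: other receptors, ligands, enzymes of receptor cleavage and glycosylation, RBPJ corepressors, acetyltransferases and mediator kinase subunits, factors of receptor trafficking and turnover, other HES and HEY genes and other B-cell targets. Of these 61 had a probe set and 50 were tested, each by its brightest one. In the changes with time, the difference between these and both population comparisons, 0 of 50 were called by limma, with 10, 9, 1, 4 and 0 at an unadjusted p under 0.05 (control time, miR-28 time, difference between them, control populations, miR-28 populations), beside 16.7%, 15.4%, 5.82%, 7.42% and 4.80% of all probe sets. Between genotypes 0 of 50 were called at 12 h, beside 0.165% of all, and at 24 h 0 were called higher and 1 lower, beside 2.75% of all in either direction. At an unadjusted p under 0.05 there were 4 at 12 h and 9 at 24 h, beside 8.02% and 15.7% of all. These lists were also compiled with earlier results of the genotype comparison known, so their counts are no independent evidence. Their median difference at 24 h was 0.02, beside 0.01 over all probe sets.

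The one called was ADAM17, a membrane metalloprotease that can cut the receptor outside the cell before gamma-secretase acts. On 213532_at its values at 24 h ran from 1375 to 1868 in control and from 1056 to 1373 in miR-28 cells. They did not overlap, as for 2.46% of all probe sets in either direction. At 12 h they ran from 1739 to 2037 and from 1296 to 1818, with overlap. The difference was -0.44 ± 0.09 at 24 h (limma adjusted p = 0.00662) and -0.34 ± 0.09 at 12 h (adjusted p = 0.146). As with the counts of the lists, the p-values between genotypes in this paragraph are no independent evidence. Its other probe sets gave -0.37 ± 0.15 (205745_x_at) and 0.01 ± 0.20 (205746_s_at) at 24 h. Within population A the difference at 24 h was -0.48 and within population B -0.40. ADAM17 was not called with population means as the samples or within A or B alone, fits that called 0, 2 and 1 of all 27306 probe sets. In the same list ADAM10 went the other way, by 0.31 at 24 h, the highest of that list, and was not called. At 12 h it differed by 0.05 ± 0.09. At 24 h ADAM10 was called with the filter at the 75th percentile (limma adjusted p = 0.028) and with 1 probe set per gene (0.039). It was also called with the induction label as a block (0.035) and without control 24 h A1 (0.024). In each other list, the gene that differed most at 24 h did not pass: HES7 (1.26 ± 0.55), TLE1 (-0.87 ± 0.33), the ligand gene JAG1 (0.58 ± 0.26), KAT2B (0.35 ± 0.15), RFNG (0.34 ± 0.18), the ligand-side ubiquitin ligase gene MIB1 (-0.34 ± 0.12), NOTCH4 (-0.28 ± 0.48) and MYC (0.15 ± 0.12), with adjusted p from 0.148 to 0.845.

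Of 11379 other genes above the filter, the 5 whose signal followed MAML3 242794_at most closely over the 24 arrays were MARCKS (Pearson r = 0.865), APOBEC3G (0.855), NLRP11 (0.850), ANKIB1 (0.839) and ARFGAP3 (0.837). After removal of the mean of each genotype, population and time, r was 0.800, 0.452, 0.601, 0.536 and 0.609. For RBPJ 211974_x_at the 5 were LYRM2 (0.772), HAUS3 (0.724), SGCE (0.723), SNW1 (0.698), whose protein SKIP binds RBPJ, and BRD1 (0.691), with r of 0.757, 0.705, 0.671, 0.641 and 0.581 after that removal. The other RBPJ probe sets did not follow 211974_x_at (r of -0.022 and -0.013), so its 5 genes describe that probe set alone. All values of this paragraph describe the 24 arrays, which share populations, inductions and array scaling, and carry no test.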

How the data were processed

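RNA of 24 samples was measured on 1-colour Affymetrix arrays from biotin-labelled cRNA of 6 µg total RNA, per the labels' protocols. Each deposited column is linear intensity per probe set. Per the submitters' processing notes MAS5 was used, its version and settings being not given in the sources used here. Trimmed of 2%, the column means were 499.923 to 499.931, so the authors' scaling was kept. Precision is limited by the number of arrays. Of 54675 probe sets, 62 controls were left out. Symbols came from the platform annotation, updated through RefSeq (41091 probe sets with 1 symbol, 1801 with several, 11721 with none).

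Values were taken as log2(intensity + 8), which understates the change of dim probe sets, and 27306 probe sets above the median mean of 6.108 were tested. Group means of genotype by time were fitted in R 4.3.3 (limma 3.58.1, statmod 1.5.0), with bulk population as a random block (consensus correlation -0.0249). This value was negative and shared by all probe sets, so the block did not widen the SEs of genotype differences. For ADAM17 213532_at at 24 h the SE was 0.0886 with the block and 0.0915 without. At 24 h 348 probe sets were called higher and 403 lower with it, and 282 and 336 without. For population differences, 8 means of genotype, population and time were fitted. Tests were two-sided, adjusted by Benjamini-Hochberg over all probe sets tested, with calls at 0.05. SEs and 95% intervals are those of limma. The fit was tested on simulated data with independent noise on each array, which does not check the effect of shared populations on genotype comparisons.

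The members and gene lists were chosen with earlier results of these data known. All member probe sets are described. Of the other pathway genes, those called, or else the one per list with the largest difference at 24 h, are named. ADAM10 is also named, as the highest difference at 24 h in the list that holds ADAM17. For likeness, the 5 genes of highest Pearson r with MAML3 and RBPJ are named. Alternatives were pseudocounts of 1 and 32, no filter or the 75th percentile, median centring, quantile normalization, other treatments of population, the induction label as a block, 1 probe set per gene, and leaving out each array. Leaving out the 2 arrays of high ACTB ratio was added after seeing the data.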

Additional observations from a re-analysis of the deposited data

Results flagged for a closer look

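In each group of 6 arrays, on the log2(intensity + 8) scale, the highest or lowest array was compared with the rest for each of the 16 member probe sets above the filter, and 8 of 64 groups held an array that stood apart by Dixon's 95% critical value. Chance alone gives about 1 in 20 groups. On the linear scale, in which the values below are given, 2 of the 8 stood apart by the same value, DTX1 227336_at in miR-28 cells and NOTCH2 202445_s_at in control cells, both at 12 h. In 7 of the 8 the array was low, and 5 of those were on dim probe sets of NOTCH2 and RBPJ. NOTCH2 210756_s_at was at 13.84 on control A1 at 12 h (others 141.7 to 251.6) and at 31.93 on miR-28 B2 at 24 h (108.7 to 191.4). NOTCH2 202445_s_at was at 14.09 on control A2 at 12 h (81.59 to 95.1) and at 10.48 on control B2 at 24 h (60.91 to 101.1), the array with the ACTB log2 ratio of 1.59. RBPJ 229540_at was at 13.86 on control A3 at 24 h (78.87 to 147). SPEN 1556058_s_at was at 36.26 on control A2 at 12 h (120.6 to 220.3). NRARP 226499_at was at 40.94 on control B1 at 12 h (189.7 to 296.7). The high array was miR-28 A1 at 12 h, with DTX1 227336_at at 3176 (2558 to 2753).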

How the results depend on the processing

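Genotype and time comparisons were refitted under 38 alternatives and population comparisons under 34, and none of the named differences that were refitted changed sign. Counts of called member probe sets stayed at 0 in control time, in the genotype difference in time and in both population comparisons under all that could be fitted. In miR-28 time the count was 1 with the filter at the 75th percentile (SPEN 1556059_s_at, -0.36, adjusted p = 0.0417). At 12 h between genotypes it was 1 with population as a fixed term or 1 probe set per gene. Those fits called 18 higher and 43 lower of all 27306 probe sets, and 25 higher and 36 lower of 11380. Nothing is read from the member counts between genotypes, here or at 24 h, since that contrast led to the choice of genes. At 24 h the count of 1 became 0 with population means, A alone and B alone, which called 0, 2 and 1 of all 27306 probe sets and so say nothing about the members, and at the 75th percentile, where MAML3 is not tested. MAML3 at 12 h was 1.81 in A and 0.56 in B, and at 24 h 1.84 and 0.83; leaving out each array gave 1.05 to 1.31 and 1.23 to 1.46. Other pathway genes called in control time went from 0 to 3 at the 75th percentile, to 1 with 1 probe set per gene or the replicate block, and to 0 to 1 when leaving out an array (1 without control 12 h A1, control 24 h A1 or miR-28 24 h B3). In miR-28 time they went from 0 to 4 at the 75th percentile, 3 with 1 probe set per gene, 1 with median centring, quantile normalization or no population block, and 0 to 1 when leaving out an array (1 without miR-28 12 h A3 or B3, control 24 h A3 or B1, or miR-28 24 h A3 or B2). At 24 h between genotypes they went from 1 to 3 at the 75th percentile, 2 with 1 probe set per gene or the replicate block, 0 with population means, A or B alone, and 1 to 2 when leaving out an array (2 without control 24 h A1). At the 75th percentile, 687 higher and 630 lower of all 13653 probe sets were called in control time. In miR-28 time they were 547 and 512, and between genotypes at 24 h 542 and 624. With 1 probe set per gene, the same 3 comparisons called 410 and 289, 302 and 228, and 296 and 313 of 11380. The main fit called 3.09%, 1.88% and 2.75% of all, so both these fits called a larger share. Nothing is read from the higher pathway counts under them. The cause was not tested. The induction labels were not taken to pair the arrays, since same-label correlations of deviations were -0.107 to 0.102. In 12 of 36 comparisons an array correlated best with its own label, where chance gives 6, and 5 of the 12 were between miR-28 cells at 12 h and control cells at 24 h. The replicate block could not be fitted for population comparisons. Median centring moved the split of all calls from 348 higher and 403 lower to 425 and 198 at 24 h, from 268 and 246 to 529 and 66 in miR-28 time, and from 433 and 410 to 297 and 177 in control time.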
